A study of Mus musculus with 6 samples.

Results

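Lung microvascular endothelial cells from *Ptprz1*+/+ and *Ptprz1*-/- mice were compared by RNA sequencing, and the 47 genes described here are those that mark blood vessel endothelium. They are 6 junction and adhesion genes, 8 transcription factors, 13 surface and signalling genes, 12 genes of capillaries and vessel tone, 3 arterial genes and 5 genes of activation and of the storage granule. They were taken by name from the table of 21999 genes, and each was found there as 1 row. *Ptprz1*-/- mice (SV129/B6 background) came from a constitutive knockout line of the receptor tyrosine phosphatase PTPRZ1, and the controls were *Ptprz1*+/+ mice. Neither genotype was treated. There were 3 independent isolations of each genotype, 1 library each, and every isolation pooled the lungs of 2 to 5 mice aged 3 to 8 weeks. Digested lung cells were grown to confluence in medium with endothelial growth supplement and then taken out with magnetic beads that bind CD31, the protein of *Pecam1*, so that the cells had been in culture before the sort.

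Blood endothelial cells line the vessels and are held together by VE-cadherin (*Cdh5*), claudin-5 and PECAM-1 at their junctions. Their identity is set in large part by ETS factors (*Erg*, *Fli1*, *Ets1*) together with SOXF factors (*Sox7*, *Sox17*, *Sox18*) and the bHLH factors *Tal1* and *Lyl1*. In the lung, capillary endothelium is known for caveolae, for uptake of fatty acids and for nitric oxide synthesis. On activation, endothelial cells release von Willebrand factor and P-selectin from a storage granule, the Weibel-Palade body, and display ICAM-1, VCAM-1 and E-selectin to passing leukocytes.

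ETS factors bind a GGAA core, which the motif AGGAAG holds, and the DNA before the start of 4 members is shown. *Egfl7* and the junction gene *Emcn* were chosen because they have 3 and 2 copies of AGGAAG. *Selp* and *Icam1* were chosen as the members whose libraries of one genotype all lay beyond those of the other. Such a separation was present for 7.28% of all genes tested. The sequences are the 250 bases before a RefSeq start (GRCm38.p6), read 5′ to 3′ on the strand of the gene. Capitals mark the ETS motif AGGAAG on either strand, which these 4 windows hold 3, 2, 1 and 0 times. GGAA cores with other flanks are also present in each of the 4 windows and are left in lower case. *Egfl7* has 3 starts in the table, with 3, 1 and 0 copies, and the one shown is the nearest to the gene's 5′ end in the deposited table, 1069 bases from it. The ETS motif CGGAAG, the GATA motif AGATAA and the SOX motif ACAATG were searched for in the same way and are not in these 4 windows.
*Egfl7*, chr2:26580833-26581082, plus strand: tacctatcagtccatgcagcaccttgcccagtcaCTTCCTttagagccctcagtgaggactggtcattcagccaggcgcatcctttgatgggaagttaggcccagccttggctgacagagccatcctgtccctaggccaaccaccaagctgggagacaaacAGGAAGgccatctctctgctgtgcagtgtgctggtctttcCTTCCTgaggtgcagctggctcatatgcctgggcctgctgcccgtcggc
*Emcn*, chr3:137340828-137341077, plus strand: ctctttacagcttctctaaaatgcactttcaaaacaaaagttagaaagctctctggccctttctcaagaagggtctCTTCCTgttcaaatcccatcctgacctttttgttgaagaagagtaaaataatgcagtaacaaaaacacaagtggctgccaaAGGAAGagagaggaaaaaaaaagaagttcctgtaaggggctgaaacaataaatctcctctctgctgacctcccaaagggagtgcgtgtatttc
*Selp*, chr1:164115014-164115263, plus strand: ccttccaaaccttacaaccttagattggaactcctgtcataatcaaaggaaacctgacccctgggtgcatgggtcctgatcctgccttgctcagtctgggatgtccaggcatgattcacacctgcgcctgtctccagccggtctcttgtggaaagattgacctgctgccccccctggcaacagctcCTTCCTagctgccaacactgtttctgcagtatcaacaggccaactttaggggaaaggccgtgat
*Icam1*, chr9:21015690-21015939, plus strand: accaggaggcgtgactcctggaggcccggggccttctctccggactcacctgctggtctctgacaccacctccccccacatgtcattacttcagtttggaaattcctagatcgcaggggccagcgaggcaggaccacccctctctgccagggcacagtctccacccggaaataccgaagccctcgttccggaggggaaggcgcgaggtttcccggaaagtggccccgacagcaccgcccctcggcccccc

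The promoter table held 25 of the 47 members, with 31 starts. AGGAAG was present before 13 of the 31 starts (41.9%), against 29.5% of all 32851 starts. The second ETS motif, the GATA motif and the SOX motif were each present before 3 of the 31 (9.68%), against 13.6%, 9.99% and 10.7% of all starts. A match describes the letters and does not show binding.

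Each library held 14496881 to 17709663 reads assigned to genes. Levels are given as CPM, counts divided by the TMM-scaled library total and multiplied by 1000000, and 3 reads, the limit that a count of 0 allows for counting error alone, correspond to 0.165 to 0.206 CPM. *Ptprz1* itself (chr6:22875502-23052916) had 197, 1837 and 508 reads in *Ptprz1*+/+ replicates 1, 2 and 3 and 1138, 1320 and 895 reads in the libraries labelled *Ptprz1*-/-, so it did not separate the genotypes. The exons removed in this line are not given in the sources used here, and reads summed over the whole gene do not check a deletion of a part of it. Fibroblast markers were abundant in every library. The summed level of the 10 fibroblast genes listed, led by *Col3a1*, *Col1a1* and *Col1a2*, was between 17921 and 25905 CPM in *Ptprz1*+/+ and between 10968 and 27401 CPM in libraries labelled *Ptprz1*-/-. The summed level of the 47 endothelial genes was between 1201 and 2304 CPM and between 1006 and 1729 CPM in the same order. *Vcam1* alone gave between 481.9 and 639.1 CPM of these sums in *Ptprz1*+/+ and between 350.2 and 598.1 CPM in *Ptprz1*-/-. The 6 junction and adhesion genes summed to 17.7, 22.5 and 383 CPM in *Ptprz1*+/+ replicates 1 to 3 and to at most 126 CPM in *Ptprz1*-/-. The part of other cells in the sum of the 47 genes was not tested. Epithelial markers (10 genes) summed to between 2.61 and 5.21 CPM.

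*Pecam1* and *Cdh5*, junction genes of endothelium, had reads in all 6 libraries but were low in 4 of them. Median levels of the 47 genes were 1.21, 1.70 and 15.5 CPM in *Ptprz1*+/+ replicates 1, 2 and 3, and 0.93, 0.96 and 4.49 CPM in *Ptprz1*-/- replicates 1, 2 and 3. The isolation numbered 3 thus had the highest median in each genotype. The labels give no date or batch for the isolations, and in bulk RNA fewer endothelial cells and less RNA per endothelial cell cannot be told apart. The highest of the 6 libraries was over 20 times the lowest for 20 of the 40 genes with a read in every library. The other 7 (*Tal1*, *Lyl1*, *Car4*, *Aplnr*, *Gja4*, *Bmx* and *Sele*) had 0 reads in at least 1 library, so their span was not measured. Of the 35 genes that passed the filter on low counts (filterByExpr of edgeR) 15 had a span over 20, against 2.73% of the 13609 genes tested, a lowest value of 0 included. At the other end, 6 genes (*Vcam1*, *Calcrl*, *Eng*, *Cav1*, *Fabp4* and *Ets1*) spanned less than 5 times, which was so for 87.9% of all genes tested.

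**Figure D1:**
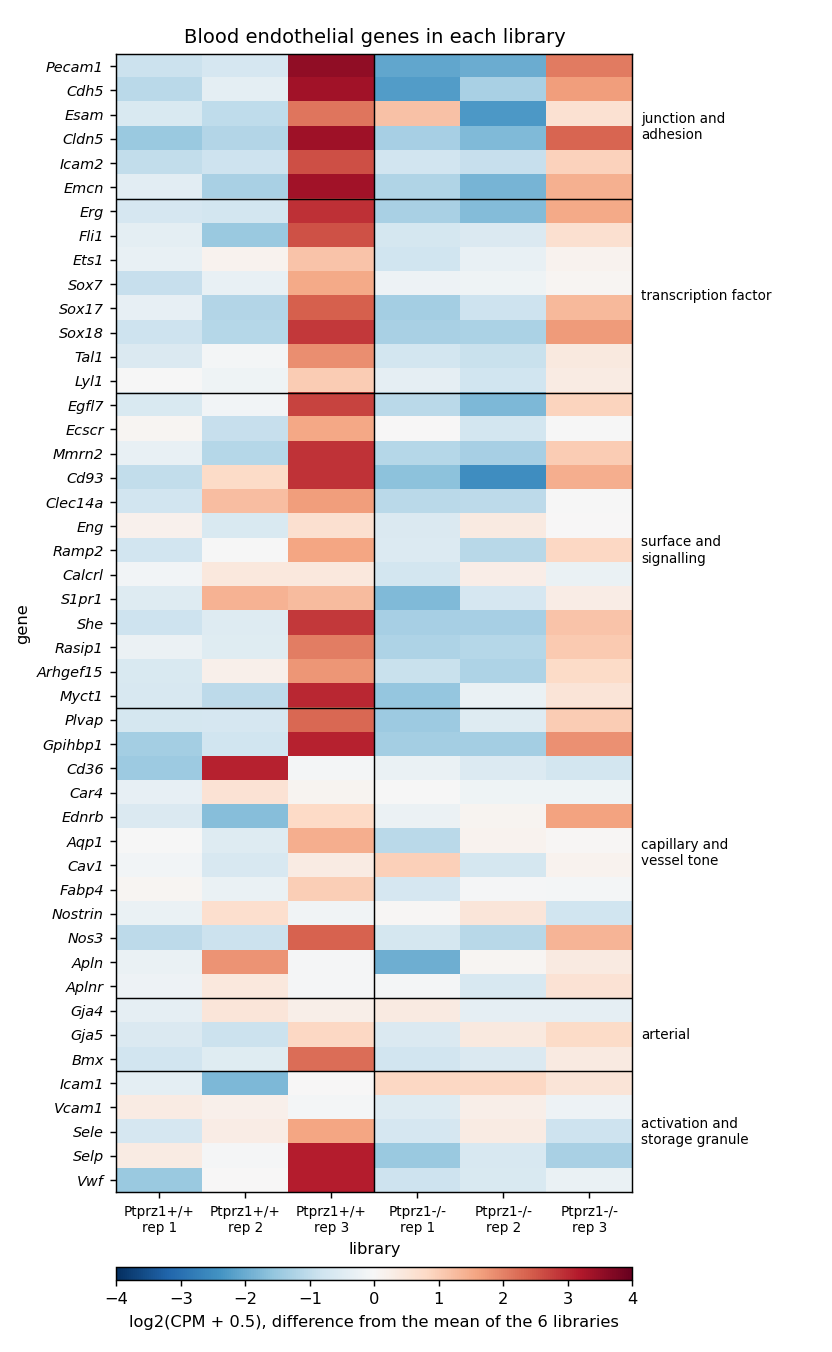
Level of each of the 47 genes (rows, grouped by role) in each of the 6 libraries (columns), as the difference of log2(CPM + 0.5) from the mean of that gene over the 6 libraries. *Ptprz1*+/+ replicate 3 is the highest of the 6 libraries for 35 genes, and *Cd36*, *Apln*, *Ednrb* and *Icam1* are among the exceptions.

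Among the junction and adhesion genes, all 6 had their highest level in *Ptprz1*+/+ replicate 3, and the genotypes overlapped for all of them. *Pecam1* (chr11:106654217-106750628, minus strand), which encodes the CD31 used for the sort, was at 3.81, 4.40 and 91.0 CPM in *Ptprz1*+/+ replicates 1 to 3 and at 1.36, 1.51 and 32.4 CPM in *Ptprz1*-/- replicates 1 to 3. Replicate 3 was 22.2 times the mean of the other replicates in *Ptprz1*+/+ and 22.6 times in *Ptprz1*-/-. The log2 fold change (*Ptprz1*-/- over *Ptprz1*+/+, as for all fold changes given) was -1.49 with a standard error of 1.66.

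*Cdh5* (chr8:104101625-104144502, plus strand), the adhesion molecule of the endothelial adherens junction, was at 8.70, 14.4 and 198.7 CPM in *Ptprz1*+/+ and at 3.60, 7.41 and 61.3 CPM in *Ptprz1*-/- (log2 fold change -1.62, standard error 1.49). Its order over the libraries was that of *Pecam1*. *Esam* (chr9:37528078-37538319, plus strand), an adhesion molecule of endothelium and platelets, was at 2.42, 1.70 and 19.4 CPM in *Ptprz1*+/+ and at 9.55, 0.412 and 6.34 CPM in *Ptprz1*-/- (log2 fold change -0.53, standard error 1.23). It was highest among the *Ptprz1*-/- libraries in replicate 1 and not in replicate 3. That library also had the highest level of the 8 mesothelial markers, which summed to 1578 CPM there, to 133 and 334 CPM in the other *Ptprz1*-/- libraries and to between 62.8 and 252 CPM in *Ptprz1*+/+, and their part in the level of *Esam* was not tested.

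*Cldn5*, the main claudin of endothelial tight junctions, had the widest step of the tested junction genes, with 0.60 and 0.88 CPM in *Ptprz1*+/+ replicates 1 and 2 and 32.0 CPM in replicate 3, and with 0.74 and 0.41 CPM in *Ptprz1*-/- replicates 1 and 2 and 15.1 CPM in replicate 3. *Emcn*, which encodes the surface sialomucin endomucin, went from 0.824 CPM in *Ptprz1*+/+ replicate 2 to 33.4 CPM in replicate 3, with 8.32 CPM in *Ptprz1*-/- replicate 3 and under 1 CPM in the other *Ptprz1*-/- libraries. *Icam2* had 4 to 6 reads in every replicate 1 or 2 library and 130 and 35 reads in replicate 3 of *Ptprz1*+/+ and *Ptprz1*-/-, and did not pass the filter on low counts. None of the 5 genes tested passed the threshold, and their log2 fold changes were between -1.90 and -0.53.

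All 8 transcription factors were highest in *Ptprz1*+/+ replicate 3, and within *Ptprz1*-/- all 8 were highest in replicate 3. *Erg* (chr16:95359169-95586593, minus strand), an ETS factor that maintains endothelial gene expression, was at 0.846, 0.77 and 15.5 CPM in *Ptprz1*+/+ and at 0.372, 0.137 and 5.55 CPM in *Ptprz1*-/- (log2 fold change -1.49, standard error 1.61). *Fli1* (chr9:32422204-32542861, minus strand), the ETS factor closest to *Erg*, was at 1.63, 0.495 and 15.8 CPM in *Ptprz1*+/+ and at 1.24, 1.37 and 3.83 CPM in *Ptprz1*-/- (log2 fold change -1.47, standard error 1.21). In both genes the 4 libraries numbered 1 and 2 were at or under 1.63 CPM, and replicate 3 stood above them in each genotype.

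*Ets1* (chr9:32636221-32757820, plus strand), an ETS factor of many cell types, did not have that step. It was at 31.8, 43.1 and 87.6 CPM in *Ptprz1*+/+ and at 22.3, 31.7 and 43.8 CPM in *Ptprz1*-/-, with a log2 fold change of -0.73 and a standard error of 0.43. Its replicate 3 was 2.34 times the mean of the other replicates in *Ptprz1*+/+ and 1.62 times in *Ptprz1*-/-. The SOXF factors took different places between these patterns. *Sox17* was 15.8 times and 12.8 times the mean of the other replicates in replicate 3 of the genotypes in the same order, and *Sox18*, which did not pass the filter, 29.0 times and 20.98 times. *Sox7* was 5.35 times higher in *Ptprz1*+/+ replicate 3, and in *Ptprz1*-/- its 3 libraries lay between 2.11 and 2.71 CPM. *Tal1* and *Lyl1*, factors shared with blood cells, did not pass the filter, with 67 and 43 reads in the 6 libraries together. Leukocyte markers (8 genes in the table) summed to between 13.8 and 56.0 CPM in *Ptprz1*+/+ and to between 10.6 and 23.6 CPM in *Ptprz1*-/-, with the highest sum in *Ptprz1*+/+ replicate 3, and their part in these low counts was not tested. None of the 5 factors tested passed the threshold, and their log2 fold changes were between -1.49 and -0.68.

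The 13 surface and signalling genes held the most members with a value below 0, since all 12 that were tested had a negative log2 fold change, between -2.37 and -0.19, and none passed the threshold. *Egfl7* (chr2:26580014-26593120, plus strand), which encodes a matrix protein secreted by endothelium, was at 3.38, 5.00 and 38.2 CPM in *Ptprz1*+/+ and at 2.36, 1.24 and 10.6 CPM in *Ptprz1*-/- (log2 fold change -1.71, standard error 1.17). *Mmrn2* (chr14:34375504-34404287, plus strand), a matrix ligand of CD93 and CLEC14A, was at 1.51, 0.605 and 17.8 CPM in *Ptprz1*+/+ and at 0.62, 0.48 and 4.49 CPM in *Ptprz1*-/- (log2 fold change -1.83, standard error 1.42). *Ecscr* (chr18:35713086-35722356, minus strand), a surface protein of endothelium, was at 4.53, 2.03 and 13.6 CPM in *Ptprz1*+/+ and at 4.40, 2.40 and 4.29 CPM in *Ptprz1*-/- (log2 fold change -0.86, standard error 0.69). In *Ecscr* the high value was in *Ptprz1*+/+ replicate 3 alone, whereas *Egfl7* and *Mmrn2* were high in replicate 3 of both genotypes.

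The receptors of *Mmrn2* were followed in the same libraries. *Cd93* was at 5.44, 19.6 and 86.8 CPM in *Ptprz1*+/+ and at 3.29, 1.58 and 31.7 CPM in *Ptprz1*-/-. *Clec14a* was low throughout, at 0.423, 3.24 and 4.61 CPM in *Ptprz1*+/+ and at 0.248, 0.274 and 1.06 CPM in *Ptprz1*-/-, and had the lowest log2 fold change of this group, -2.37 (standard error 0.97, unadjusted p = 0.0468 and adjusted p = 1 in edgeR). Its genotypes overlapped, since *Ptprz1*+/+ replicate 1 was below *Ptprz1*-/- replicate 3. *S1pr1*, the receptor of sphingosine-1-phosphate that stabilizes vessels, was at 25.2, 95.0 and 86.6 CPM in *Ptprz1*+/+ and at 10.3, 22.3 and 44.0 CPM in *Ptprz1*-/-, so that its high *Ptprz1*+/+ libraries were replicates 2 and 3 (log2 fold change -1.43, standard error 0.66, unadjusted p = 0.0695 and adjusted p = 1 by the same test).

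The coreceptor endoglin and the receptor chain for adrenomedullin spread little. *Eng*, endoglin, was between 59.4 and 141.9 CPM in *Ptprz1*+/+ and between 59.6 and 115.1 CPM in *Ptprz1*-/-. *Calcrl*, the receptor chain for adrenomedullin, was between 19.8 and 28.8 CPM and between 12.6 and 25.9 CPM in the same order, so the highest library was 2.39 times the lowest for *Eng* and 2.27 times for *Calcrl*. *Ramp2*, its partner chain, spanned 13.3 times between the highest and the lowest library and was at 5.49 and 3.04 CPM in the replicate 3 libraries and between 0.41 and 1.48 CPM in the other 4, and shares 33.4% of its exonic bases with *Vps25* on the same strand, which could split its reads. *Myct1* was 27.3 times the mean of the other replicates in *Ptprz1*+/+ replicate 3 and 3.67 times in *Ptprz1*-/- replicate 3. *Rasip1* and *Arhgef15*, regulators of small GTPases in endothelium, were 6.54 and 4.53 times higher in *Ptprz1*+/+ replicate 3 and 7.48 and 5.12 times higher in *Ptprz1*-/- replicate 3. *Rasip1* shares 20.4% of its exonic bases with *Izumo1* on the same strand, which could split its reads. *She*, with 209 reads in all, did not pass the filter.

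**Figure D2:**
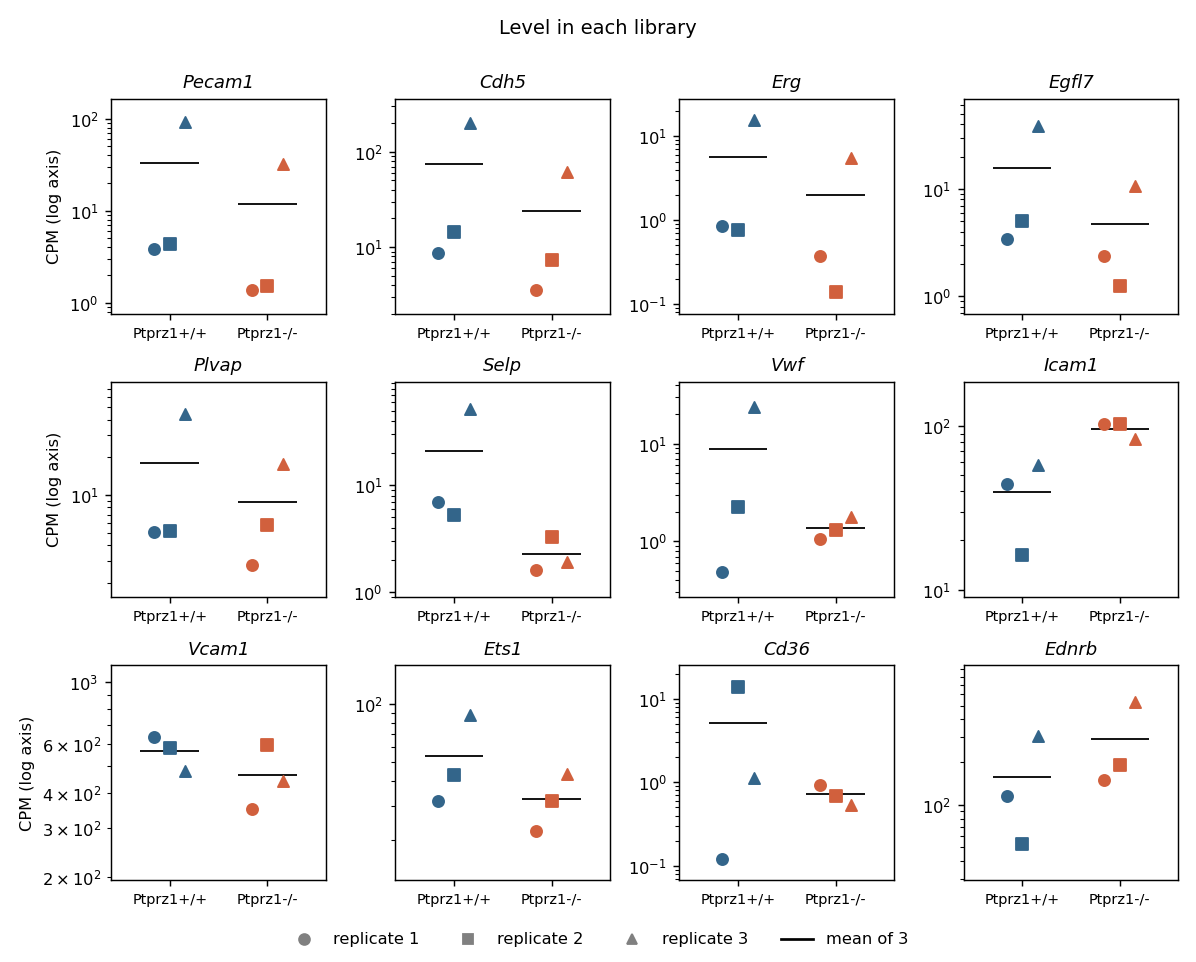
CPM (log axis) of 12 members in the 3 *Ptprz1*+/+ libraries and the 3 libraries labelled *Ptprz1*-/-, with the symbol giving the replicate number and the line the mean of the 3. In *Pecam1*, *Cdh5*, *Erg*, *Egfl7* and *Plvap* replicate 3 is the highest in each genotype, *Selp* and *Vwf* are high in *Ptprz1*+/+ replicate 3 alone, and the genotypes do not overlap in *Selp* and *Icam1*.

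The genes of capillaries and vessel tone were the most mixed. *Plvap* (chr8:71497754-71511769, minus strand), which forms the diaphragms of caveolae and fenestrae, was at 5.07, 5.17 and 44.0 CPM in *Ptprz1*+/+ and at 2.79, 5.83 and 17.8 CPM in *Ptprz1*-/- (log2 fold change -1.04, standard error 1.05). *Gpihbp1* (chr15:75596628-75599481, plus strand), which carries lipoprotein lipase to the capillary lumen, had 1, 6 and 188 reads in *Ptprz1*+/+ and 1, 1 and 70 reads in *Ptprz1*-/- and did not pass the filter. It had the widest span of the 40 members with a read in every library, its highest level being 196 times its lowest. *Nos3*, the endothelial nitric oxide synthase, had 115 and 51 reads in the replicate 3 libraries and 3 to 7 reads in the others, and did not pass it either.

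*Cd36* (chr5:17781690-17888959, minus strand), a fatty acid transporter, was high in 1 library, *Ptprz1*+/+ replicate 2. It was at 0.121, 13.9 and 1.14 CPM in *Ptprz1*+/+ and at 0.93, 0.686 and 0.528 CPM in *Ptprz1*-/- (log2 fold change -2.81, standard error 1.44, unadjusted p = 0.0948 and adjusted p = 1 in edgeR's test). *Apln*, the ligand apelin made by sprouting endothelium, was also highest there, at 108.9 CPM against 25.7 and 30.2 CPM in the other *Ptprz1*+/+ libraries and between 7.63 and 40.03 CPM in *Ptprz1*-/-. The 8 proliferation genes summed to 799 CPM in that library, to 123 and 64.9 CPM in the other *Ptprz1*+/+ libraries and to between 56.6 and 166 CPM in *Ptprz1*-/-, and their part in either gene was not tested. Without that library the log2 fold change of *Cd36* was 0.19 and that of *Apln* -0.06. *Aplnr*, the apelin receptor, had 0 to 10 reads per library.

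*Ednrb*, the endothelin B receptor of lung capillaries, had the opposite sign. It was at 116.0, 52.8 and 304 CPM in *Ptprz1*+/+ and at 149, 190 and 532 CPM in *Ptprz1*-/- (log2 fold change 0.88, standard error 0.74), with replicate 3 highest in each genotype and the genotypes overlapping. *Cav1*, the coat protein of caveolae, was between 70.7 and 137.0 CPM in *Ptprz1*+/+ and between 67.5 and 213.9 CPM in *Ptprz1*-/-, where the highest value was in replicate 1. That library had the highest sums of the mesothelial markers (1578 CPM) and of the smooth muscle and pericyte markers (4615 CPM). Their part in the level of *Cav1* was not tested. *Fabp4*, a fatty acid carrier of capillary endothelium and fat cells, was between 29.7 and 71.2 CPM in *Ptprz1*+/+ and between 22.2 and 34.4 CPM in *Ptprz1*-/-. Of the 5 adipocyte markers in the table, *Adipoq* had reads in 1 library only (0.062 CPM) and *Plin4* made up most of the sum, which was between 11.9 and 24.1 CPM. *Aqp1*, a water channel, was between 18.4 and 72.9 CPM in *Ptprz1*+/+ and between 12.4 and 29.1 CPM in *Ptprz1*-/-. *Nostrin* stayed at or under 1.59 CPM, and *Car4*, the carbonic anhydrase of alveolar capillaries, had 15 reads in the 6 libraries together. Of the 8 genes tested in this group none passed the threshold, 6 had a log2 fold change below 0 and 2 (*Ednrb* and *Cav1*) above 0.

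Arterial genes were close to the detection limit. *Gja4* (chr4:127311421-127314039, minus strand), a connexin of arterial endothelium, had 0, 7 and 4 reads in *Ptprz1*+/+ and 5, 0 and 0 reads in *Ptprz1*-/-. *Gja5* (chr3:97032416-97053634, plus strand), a second arterial connexin, had 4, 2 and 23 reads in *Ptprz1*+/+ and 4, 14 and 21 reads in *Ptprz1*-/- (log2 fold change 0.53, standard error 1.01), and 856 bases of a *Gja5* transcript match *Zfp697* at 99.4% identity, so its reads are uncertain. *Bmx* (chrX:164192842-164258193, minus strand), a kinase of arterial endothelium, had 0, 2 and 55 reads in *Ptprz1*+/+ and 0, 1 and 9 reads in *Ptprz1*-/-. Only *Gja5* was tested, and it did not pass the threshold.

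The genotypes did not overlap for 2 of the 35 members tested (5.71%), both of them activation genes, which is no more than the 7.28% of all genes tested with such a separation. *Icam1* (chr9:21015960-21028797, plus strand), the leukocyte adhesion molecule whose upstream sequence is given above, was at 44.5, 16.2 and 57.9 CPM in *Ptprz1*+/+ (mean 39.5 ± 21.3, SD, n = 3) and at 103.1, 102.5 and 83.8 CPM in *Ptprz1*-/- (mean 96.5 ± 10.97, SD, n = 3). Every *Ptprz1*-/- library was above every *Ptprz1*+/+ library. The fold change was 2.44 (log2 1.29, standard error 0.43), with p = 0.0230 before and p = 1 after adjustment in edgeR, and p = 0.1 by exact two-sided permutation, the smallest that 3 libraries against 3 allow. The log2 fold change was between 0.91 and 1.67 when any 1 library was left out. *Icam1* shares 511 exonic bases with the antisense gene *Gm47079*, and whether counting used strand is not given in the sources used here. *Icam1* was highest in *Ptprz1*-/- replicates 1 and 2, where *Pecam1* was at 1.36 and 1.51 CPM. The part of fibroblasts, mesothelium and other cells in the level of *Icam1* was not tested.

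*Selp* (chr1:164115264-164150026, plus strand), P-selectin, was at 6.95, 5.22 and 51.4 CPM in *Ptprz1*+/+ (mean 21.2 ± 26.2, SD, n = 3) and at 1.61, 3.29 and 1.92 CPM in *Ptprz1*-/- (mean 2.27 ± 0.896, SD, n = 3). Each *Ptprz1*+/+ library was above each *Ptprz1*-/- library. *Selp* had the lowest log2 fold change of the members tested, -3.22 (standard error 0.98, 9.30-fold lower in *Ptprz1*-/-), with p = 0.0151 before and p = 1 after adjustment in edgeR, and again p = 0.1 by exact two-sided permutation. Its size rested on *Ptprz1*+/+ replicate 3, since without it the log2 fold change was -1.42 (standard error 0.42). *Selp* shares 438 exonic bases with *Gm16548* on the opposite strand.

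*Vwf*, the other product of the Weibel-Palade body, was at 0.483, 2.25 and 23.8 CPM in *Ptprz1*+/+ and at 1.05, 1.30 and 1.78 CPM in *Ptprz1*-/-. It overlapped between the genotypes, because *Ptprz1*+/+ replicate 1 was the lowest of the 6 libraries. The log2 fold change was -2.67 (standard error 1.29, unadjusted p = 0.0815, adjusted p = 1 in edgeR's test) and 0.01 without *Ptprz1*+/+ replicate 3. *Selp* and *Vwf* are also made by megakaryocytes, and the 6 platelet markers listed summed to between 3.68 and 7.42 CPM in *Ptprz1*+/+ and to between 3.91 and 6.87 CPM in *Ptprz1*-/-, with *Ptprz1*+/+ replicate 3 at 6.06 CPM.

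*Vcam1* (chr3:116110020-116129688, minus strand), which binds integrins of leukocytes, was at 639.1, 583.5 and 481.9 CPM in *Ptprz1*+/+ and at 350.2, 598.1 and 443.9 CPM in *Ptprz1*-/- (log2 fold change -0.29, standard error 0.24). It had the narrowest span of all 47 genes, 1.82 times between the highest and the lowest library. The part of other cells in the level of *Vcam1* was not tested. *Sele* (chr1:164048234-164057677, plus strand), E-selectin, had 1, 11 and 34 reads in *Ptprz1*+/+ and 1, 9 and 0 reads in *Ptprz1*-/- and did not pass the filter. Of the 4 activation genes tested, none passed the threshold over all genes.

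Levels were compared between genes on the FPKM scale, which divides by gene length. *Vcam1* was the highest of the 47 in 5 libraries (between 106.5 and 184.4 FPKM) and second to *Ednrb* in *Ptprz1*-/- replicate 3 (136.4 against 139.4 FPKM). By the mean over the *Ptprz1*+/+ libraries *Fabp4*, *Ednrb*, *Cav1* and *Eng* followed, with means of 71.3, 38.6, 37.0 and 27.8 FPKM in *Ptprz1*+/+ and of 47.6, 74.3, 49.99 and 24.7 FPKM in *Ptprz1*-/-. The order among these 4 changed from library to library, so neighbours in it are not separated by more than their spread. The junction genes took different places by isolation. *Cdh5* ranked 14 and 13 of the 47 in *Ptprz1*+/+ replicates 1 and 2 (2.14 and 3.70 FPKM) and 5 in replicate 3 (48.2 FPKM), and 16, 14 and 7 in *Ptprz1*-/- replicates 1 to 3. For scale, *Col3a1*, a fibroblast collagen, was between 1030 and 2165 FPKM in *Ptprz1*+/+ and between 699.5 and 2611 FPKM in *Ptprz1*-/-.

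The libraries numbered 3 were singled out because of these genes, so the counts that follow describe them and test nothing. *Ptprz1*+/+ replicate 3 was the highest of the 6 libraries for 35 of the 47 genes, and for 26 of the 35 tested, against 13.0% of all genes tested. It was at least 4 times each other *Ptprz1*+/+ library for 25 of the 47 and for 18 of the 35 tested, against 0.977% of all genes tested. *Ptprz1*-/- replicate 3 was at least 4 times each other *Ptprz1*-/- library for 18 of the 47 and 11 of the 35, against 1.01%. Both held for 17 of the 47 and 10 of the 35, against 0.375%, and both libraries numbered 3 lay above the other 4 for 27 of the 47 and 19 of the 35, against 10.0%. By role, both steps were present in 5 of 6 junction genes, 4 of 8 transcription factors, 5 of 13 surface and signalling genes, 2 of 12 capillary genes, 1 of 3 arterial genes and 0 of 5 activation genes.

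**Figure D3:**
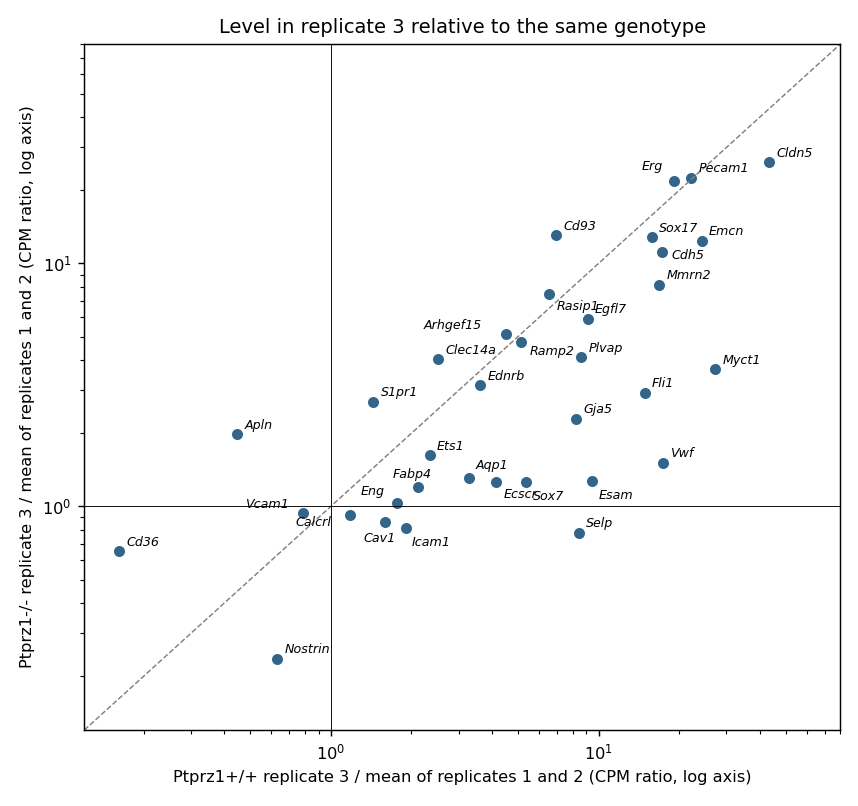
CPM in replicate 3 divided by the mean CPM of replicates 1 and 2, in *Ptprz1*+/+ (horizontal, log axis) and in *Ptprz1*-/- (vertical, log axis), for the 35 genes tested. Points near the dashed line, such as *Pecam1* (22.2 and 22.6), have the same ratio in both genotypes, and *Selp* (8.45 and 0.781) and *Vwf* (17.4 and 1.51) lie far below it.

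Markers of other cells were mixed in the libraries numbered 3. The fibroblast list summed to 25905 CPM in *Ptprz1*+/+ replicate 3 and to 27401 CPM in *Ptprz1*-/- replicate 3, against 10968 to 18273 CPM in the other 4 libraries, and *Col3a1* alone gave 12460 and 13910 CPM of these sums. The median fibroblast marker was at 318.6, 614.2 and 282.4 CPM in *Ptprz1*+/+ replicates 1 to 3 and at 200.8, 281.5 and 353.1 CPM in *Ptprz1*-/- replicates 1 to 3, so it was lowest in replicate 3 of *Ptprz1*+/+ and highest in replicate 3 of *Ptprz1*-/-. Relative to the mean of the other replicates, replicate 3 was above 1 for 7 of the 10 markers in *Ptprz1*+/+ (0.508 to 9.56 over the list) and for 9 of the 10 in *Ptprz1*-/- (0.959 to 6.33). For the 7 lymphatic markers in the table the same ratio was above 1 for 5 in *Ptprz1*+/+ (0.167 for *Reln* to 32.2 for *Lyve1*) and for 4 in *Ptprz1*-/- (0.315 for *Reln* to 6.09 for *Lyve1*). The part of these cells in the levels of the endothelial genes was not tested.

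The genotype comparison asked whether endothelial identity genes differ between *Ptprz1*-/- and *Ptprz1*+/+ cells. By edgeR's quasi-likelihood test no member out of 35 reached an adjusted p under 0.05. Neither did any other gene, so the background was 0% of 13609 genes. At an unadjusted p under 0.05 there were 366 genes (2.69%), among them 3 of the 35 members, *Clec14a* and *Selp* with lower and *Icam1* with higher values in *Ptprz1*-/-. DESeq2 gave 30 genes with an adjusted p under 0.05, none of them a member. Only 30 of the 35 members had a p-value in DESeq2, and those without one, *Pecam1* and *Cdh5* among them, could not be called. The lowest adjusted p of a member in DESeq2 was 0.0727, for *Selp*. With limma voom 0 genes passed (342 were at an unadjusted p under 0.05, 1 of them a member). Members with 3 libraries of one genotype all beyond the other 3 were the same 2 genes, *Icam1* and *Selp*, under each of 5 other scalings and filters.

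The sign of the fold changes was mostly negative. Of the 35 members tested 31 had a log2 fold change below 0 (88.6%), against 50.9% of all genes, and their median was -1.05 against -0.005 for all genes tested. The filter on low counts left out 12 members, so these counts do not stand for all 47. *Gpihbp1*, *Sox18* and *She*, high in the libraries numbered 3 alone, were among those left out. Without the filter 43 of the 47 were below 0, with a median of -1.17. The sign of the median turned when *Ptprz1*+/+ replicate 3 alone was left out, and did not turn when both libraries numbered 3 were left out. Without *Ptprz1*+/+ replicate 3, 12 of the 35 members tested were below 0, the median was 0.40, and the log2 fold changes of *Pecam1*, *Cdh5*, *Erg* and *Egfl7* were 1.52, 1.06, 1.31 and 0.18. Without both libraries numbered 3, 22 of 32 members tested were below 0, with a median of -0.36, and *Pecam1*, *Cdh5*, *Erg* and *Egfl7* had values of -1.51, -1.07, -1.62 and -1.22. Over all genes tested the median was -0.0073 without the filter, -0.0034 without *Ptprz1*+/+ replicate 3 and -0.0037 without both libraries numbered 3.

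**Figure D4:**
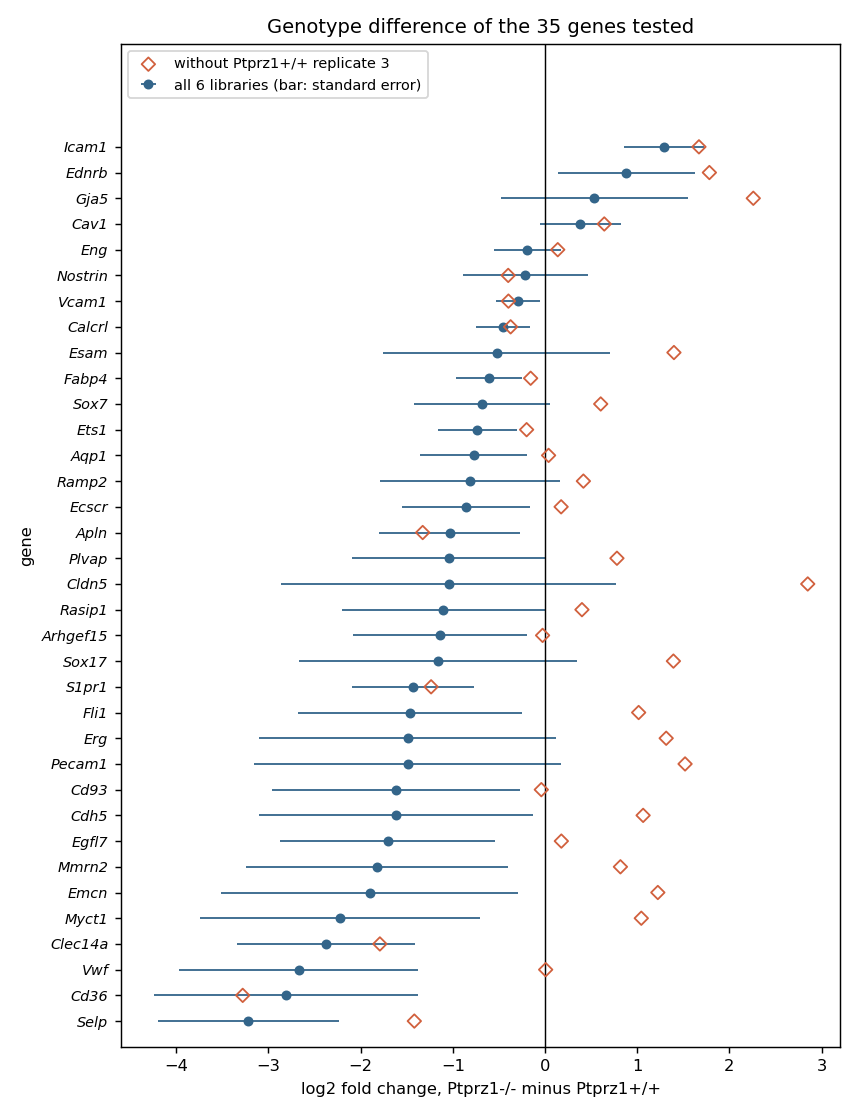
Log2 fold change (*Ptprz1*-/- over *Ptprz1*+/+) of the 35 genes tested, with all 6 libraries (filled circles, bars are standard errors) and without *Ptprz1*+/+ replicate 3 (open diamonds). With all libraries 31 values are below 0, and without that library 12 are; *Icam1* stays above 0 and *Selp* below 0 in both.

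A list of 24 other blood endothelial genes, among them the receptors *Kdr*, *Flt1*, *Tie1* and *Tek*, gave values of the same kind. The table held 22 of them, of which 16 were tested, 0 passed the threshold, 15 had a log2 fold change below 0 and the median was -0.72. *Tie1*, an orphan receptor of endothelium, was at 1.93, 1.81 and 65.5 CPM in *Ptprz1*+/+ and at 0.806, 0.686 and 25.3 CPM in *Ptprz1*-/-. *Gata2* and *Mecom*, the most abundant of the list after *Thbd*, did not have that step. Their replicate 3 was 0.88 and 1.17 times the mean of the other replicates in *Ptprz1*+/+, and 0.40 and 1.59 times in *Ptprz1*-/-. In this list *Ptprz1*+/+ replicate 3 was at least 4 times each other *Ptprz1*+/+ library for 13 of 22 genes, and both genotypes had the step for 8. The sum of the list was 482, 575 and 1044 CPM in *Ptprz1*+/+ and 343, 793 and 767 CPM in *Ptprz1*-/-, most of it from *Thbd*, which encodes thrombomodulin and was between 254.8 and 685.1 CPM.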

How the data were processed

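Total RNA of 6 isolations of lung microvascular endothelial cells was sequenced, 3 of each genotype, and genotype and replicate were taken from the sample titles. The authors deposited a table of counts, the reads assigned to each of 21999 genes without normalization, and of FPKM values, which the authors derived from those counts with the gene length and the total count. The submitters' processing notes name STAR, TopHat, HTSeq, DESeq2, edgeR, GRCm38 and mm10 without roles. The use of strand is not given in the sources used here. The deposited fold changes and p-values, and the lists of called genes, are the authors' own comparison and were not used.

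Scaling was by TMM and testing by the quasi-likelihood functions of edgeR 4.0.16 (R 4.3.3), with filterByExpr at a minimum count of 10, genotype alone in the model, Benjamini-Hochberg adjustment over 13609 genes and a threshold of 0.05. Standard errors were obtained as the size of the log2 fold change over the root of F. The p-values measure the spread between isolations, each a pool of mice. Single genes were compared by exact two-sided permutation on log2(CPM + 0.5). The functions were tested on simulated data. The alternatives were DESeq2 1.42.0, limma voom 3.58.1, upper-quartile scaling, no filter, 10 counts in every library, FPKM, a replicate block and each library left out, and, added after the data were seen, both libraries numbered 3 left out. Overlapping exons came from GENCODE M21 (GRCm38), near-identical transcripts from minimap2 2.31 (at least 100 bases at 90% identity), and promoters from RefSeq.

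The members, the lists and the tests were chosen with earlier results of these data known. Values in every library are given for the first 3 members of each role and for those whose genotypes did not overlap. *Cldn5*, *Emcn*, *Sox7*, *Sox17*, *Sox18*, *Cd93*, *Clec14a*, *S1pr1*, *Apln*, *Ednrb*, *Vwf*, *Tie1* and *Prox1* were described after their values were seen. No columns of other samples were present. Depth was 14496881 to 17709663 counts per library, and 12 of the 47 members did not pass the filter. No pair of libraries held the same counts.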

Additional observations from a re-analysis of the deposited data

How the results depend on the processing

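No member passed an adjusted p of 0.05 in any fit run with edgeR, limma voom or DESeq2, and DESeq2 called 30 genes of the whole table. DESeq2 gave no p-value to *Pecam1*, *Cdh5*, *Cldn5*, *Emcn* and *Erg*, so it could not call them. The median log2 fold change of the members tested was -1.05, between -2.08 (without *Ptprz1*-/- replicate 3) and 0.40 (without *Ptprz1*+/+ replicate 3) when 1 library was left out, and -0.36 without both libraries numbered 3. *Icam1* (0.91 to 1.67), *Selp* (-3.69 to -1.42), *Clec14a* (-3.37 to -1.79), *S1pr1* (-2.08 to -1.05) and *Ednrb* (0.09 to 1.78) kept their sign with any 1 library left out.

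The log2 fold changes of 19 members turned from below to above 0 without *Ptprz1*+/+ replicate 3, and 12 of the 18 of these that were tested without both libraries numbered 3 were below 0 there. The cause was not tested. Over the 6 libraries left out in turn they ranged from -4.53 to 1.52 for *Pecam1*, -3.76 to 1.06 for *Cdh5*, -1.21 to 1.40 for *Esam*, -4.26 to 2.85 for *Cldn5*, -4.16 to 1.22 for *Emcn*, -4.43 to 1.31 for *Erg*, -2.20 to 1.02 for *Fli1*, -1.11 to 0.60 for *Sox7*, -3.47 to 1.39 for *Sox17*, -3.11 to 0.18 for *Egfl7*, -1.30 to 0.17 for *Ecscr*, -3.58 to 0.82 for *Mmrn2*, -0.46 to 0.14 for *Eng*, -1.98 to 0.42 for *Ramp2*, -2.76 to 0.40 for *Rasip1*, -3.16 to 1.04 for *Myct1*, -2.08 to 0.78 for *Plvap*, -1.12 to 0.0385 for *Aqp1* and -3.22 to 0.0068 for *Vwf*. *Esam* also turned without *Ptprz1*-/- replicate 2 (0.0219) and *Eng* without *Ptprz1*-/- replicate 1 (0.0276). *Cd36* (-3.38 to 0.19) and *Nostrin* (-0.76 to 0.35) changed sign without *Ptprz1*+/+ replicate 2, *Nostrin* also without *Ptprz1*-/- replicate 3 (0.21), and *Cav1* (-0.12 to 0.70) without *Ptprz1*-/- replicate 1. Without both libraries numbered 3, *Esam* (1.27), *Fli1* (0.30), *Sox7* (0.48), *Ecscr* (0.0545), *Eng* (0.12), *Myct1* (0.12) and *Nostrin* (0.0189) were above 0.

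Deviations of same-numbered libraries from their genotype mean correlated at 0.46, -0.06 and 0.53 for numbers 1, 2 and 3. Number 1 of one genotype against number 3 of the other gave -0.58 and -0.47. *Ptprz1*+/+ replicate 2 was near 0 with every *Ptprz1*-/- library (0.02, -0.06 and 0.03). With 3 isolations of each genotype these values cannot decide whether the replicate numbers pair the isolations. With the replicate number as a block, edgeR called 0 genes at an adjusted p under 0.05 and 690 (5.07%) at an unadjusted p under 0.05, among them 16 of 35 members, 14 of them lower in *Ptprz1*-/-, with a median of -0.76 over the members tested and a lowest adjusted p of 0.538.

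Between 3 and 21 of the 47 genes had under 10 reads in a library, and these values carry the most counting error. The 12 members that did not pass the filter entered the edgeR fit without one, which called 0 of the 47 at an adjusted p under 0.05 and 4 at an unadjusted p under 0.05. Of all 21999 genes in that fit, 0 were under 0.05 after adjustment and 553 (2.51%) before it. A p that misses the threshold does not show equal levels.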

Other observations

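Outside the blood endothelial genes, markers of lymphatic endothelium were measured in the same libraries. Of the 7 in the table all were tested, and 0 reached an adjusted p under 0.05 by edgeR (1, *Reln*, was under 0.05 unadjusted). The log2 fold change was below 0 for 6, with a median of -1.46 over the 7. It was above 0 for *Flt4* (0.62, standard error 0.51). *Prox1*, the transcription factor that sets lymphatic identity, was at 0.664, 1.65 and 4.54 CPM in *Ptprz1*+/+ replicates 1 to 3 and at 1.05, 0.549 and 0.859 CPM in *Ptprz1*-/- replicates 1 to 3 (log2 fold change -1.46, standard error 0.73). *Pdpn*, which is shared with fibroblasts and mesothelium, made up most of the sum of the list and was between 202.0 and 282.8 CPM.

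Smooth muscle and pericyte markers (10 genes) summed to between 878 and 4440 CPM in *Ptprz1*+/+ and to between 1598 and 4615 CPM in *Ptprz1*-/-, and were led by *Acta2*, *Tagln* and *Pdgfrb*. Both libraries numbered 1 had the highest sums of their genotype, and by edgeR 0 of the 10 were under 0.05 after adjustment, with 0 under 0.05 before it.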
